A study of Mus musculus with 6 samples.

Results

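The genes described here are 49 cell cycle genes of dividing cells, 31 of mitosis and 18 of S phase, chosen by symbol from the 53686 genes of a count table. The 6 libraries of the table were made from poly-A RNA of the main olfactory epithelium, taken from C57BL/6J mice. In 3 libraries the mice were hemizygous for the transgene 5x21-OR1A1, which carries a human odorant receptor, and in 3 they were wild-type. Age, sex and the regulatory sequence that drives the transgene are not given in the labels, and the transgene itself is not analysed here. The labels name separate replicates without saying that each came from its own mouse, so a p-value here covers only library-to-library spread, which may be technical.

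The olfactory epithelium replaces its sensory neurons throughout life. Globose basal cells divide, pass through a stage marked by neurogenic transcription factors and leave the cell cycle as immature neurons. During S phase the MCM helicase and its loading factors open the DNA that polymerases copy, and many of these genes are activated by E2F factors at the end of G1. In mitosis Cdk1 with its B-type cyclins drives the assembly of spindle and kinetochores, and the genes of this stage are switched on together in G2, with B-Myb and FoxM1 among their activators.

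The sequences around the starts of these genes are shown first. Mitosis genes are known to share a short element, the cell cycle genes homology region (CHR). Through it the MuvB complex holds them silent in resting cells and activates them in G2. RefSeq promoters on GRCm38.p6, 250 bases before to 50 after a start, were at hand for 26 mitosis and 14 S-phase genes. The letters searched on both strands were TTTGAA or TTCGAA for the CHR, CCAAT for the box bound by NF-Y, and TTTCCCGC, TTTGGCGC, TTTCGCGC or TTTGCCGC for E2F. A gene was counted once if any of its promoters held the letters. The CHR letters were found for 21 of 26 mitosis genes (80.8%), before the start, after it or on both sides. They were found for 4 of 14 S-phase genes (28.6%) and 21.7% of all 27025 genes, whose 32851 promoters held them in 19.2%. Counting only 100 bases before to 50 after the start, 21 mitosis genes, 3 S-phase genes and 9.87% of all genes had the CHR letters. CCAAT was found for 20 mitosis genes, 11 S-phase genes and 41.1% of all genes. E2F letters were found for 1 mitosis gene, 5 S-phase genes (35.7%) and 2.6% of all genes. These matches describe letters and were not tested as binding sites.

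The 5 genes below rose in transgenic tissue and hold a CHR or E2F match, and their sequences are printed 5′ to 3′ on the strand of the gene, with the matches in capitals. For Top2a (chr11:99024190-99024359, minus strand) and Mcm5 (chr8:75109339-75109508, plus strand) the 170 bases before the start are given. For Anln (chr9:22389166-22389193, minus strand), Knl1 (chr2:119047139-119047166, plus strand) and Mcm2 (chr6:88898834-88898861, minus strand) a window of 28 bases around the CHR letters is given.
Top2a: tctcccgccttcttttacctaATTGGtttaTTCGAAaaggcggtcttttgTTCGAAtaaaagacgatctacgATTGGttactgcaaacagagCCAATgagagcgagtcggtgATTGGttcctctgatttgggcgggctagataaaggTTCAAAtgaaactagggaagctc
Anln: cgctgaaaTTCAAAtTTTGAAcggccgt
Knl1: gggcggttagaTTTGAAtacttcaggga
Mcm2: gggctcagcctTTTGAAagctgtgggcg
Mcm5: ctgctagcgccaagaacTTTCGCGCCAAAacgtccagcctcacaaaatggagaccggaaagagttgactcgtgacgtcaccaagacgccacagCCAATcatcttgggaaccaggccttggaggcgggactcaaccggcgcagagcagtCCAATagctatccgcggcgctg
The Top2a stretch holds 3 CHR matches and 4 CCAAT boxes, most of the boxes read on the other strand as ATTGG. The Anln window holds the CHR letters on both strands, back to back, and lies just after the annotated start, as does that of Knl1. Mcm5 carries an E2F match on each strand, overlapping, and a pair of CCAAT boxes. Mcm2, an S-phase gene, has CHR letters at 70 bases before its start and none of the E2F letters in the window searched. Nuf2 and Mcm10 rose too and are not printed: the Nuf2 window held none of the letters searched, and that of Mcm10 held 3 CCAAT boxes but no CHR or E2F match. Foxm1 also rose, but no promoter was at hand for it, so it was not searched.

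Cell cycle genes were higher in transgenic than in wild-type epithelium. All 48 members with enough counts to test had a log2 fold change above 0, against 52.9% of the 19267 genes tested. At an edgeR adjusted p under 0.05 over all genes, 8 rose and 0 fell, where 0.519% of all genes were called higher and 2.2% lower. At an unadjusted p under 0.05, 37 members were higher and 0 lower, and 7.48% of all genes were higher. In 39 members every transgenic library lay above every wild-type library, against 11.4% of all genes. The median log2 fold change was 0.60 over 30 mitosis genes, 0.38 over 18 S-phase genes and 0.02 over all genes tested.

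Mitosis genes added up to 232, 250 and 209 CPM (read counts scaled by TMM library size) in the transgenic libraries, against 159, 154 and 161 CPM in the wild-type libraries. S-phase genes added up to 222, 220 and 211 CPM in the transgenic libraries, against 169, 172 and 178 CPM in the wild-type ones. The groups did not overlap in either sum. The mitosis sum averaged 230.4 ± 20.5 CPM in transgenic and 158 ± 4.07 CPM in wild-type tissue, a ratio of 1.46, and the S-phase sum 217 ± 6.18 and 173 ± 4.31 CPM, a ratio of 1.26 (SD, n = 3 each). The mitosis sum divided by the S-phase sum was 1.04, 1.14 and 0.994 in transgenic libraries and 0.939, 0.893 and 0.909 in wild-type libraries. This ratio of sums was higher in each transgenic library, and a shift of cells between phases was not tested. In RNA from whole tissue, more dividing cells and more of these transcripts per cell cannot be told apart. Transgenic library 2 had the highest level of its group in 19 of 30 mitosis genes, and transgenic library 3 the lowest in 25.

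**Figure D1:**
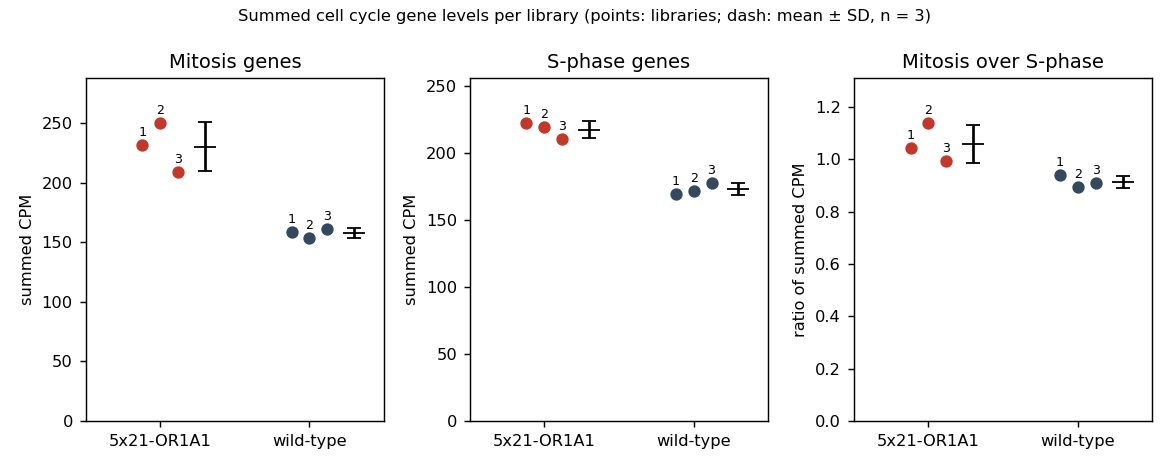
Summed CPM of the 31 mitosis and 18 S-phase genes in each library, and the ratio of both sums, with numbered points for libraries and a dash with bars for the mean ± SD of 3. The transgenic libraries lie above the wild-type libraries in all 3 panels, at 209 to 250 against 154 to 161 CPM for mitosis genes.

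Depth and the makeup of the libraries bear on these values. The libraries held 27506217 to 35804712 counts, and the 49 genes took 0.0414 to 0.0470% of counts in transgenic and 0.0325 to 0.0335% in wild-type libraries. Every tested member had at least 19 counts in each wild-type library, so none entered the test through its higher group alone. Transgenic library 2 stood apart, with a chi-square per gene of 174 to 238 against each other library, and 53.3 to 139 among the others. Without it the median was 0.53 for mitosis and 0.37 for S-phase genes, with all 48 still above 0. Calls were sensitive to every library: 0, 0 and 1 mitosis genes were called without transgenic libraries 1, 2 and 3 and 2, 1 and 3 without wild-type libraries 1, 2 and 3, and for S-phase genes 0, 0 and 0, then 1, 1 and 1. DESeq2 called 15 mitosis and 6 S-phase genes higher and 0 lower, with 1.69% of all genes called higher by that tool. On simulated counts DESeq2 made more false calls than edgeR but also recovered more of the smallest changes, most of which edgeR missed. With sex, read from Xist and Ddx3y, as a covariate, edgeR called Anln, Mcm5 and Rrm2 (adjusted p = 0.0377, 0.0375 and 0.0492). Top2a, Foxm1, Knl1, Nuf2, Mcm10 and Mcm2 then lost their calls (edgeR adjusted p of 0.0579 to 0.103) at log2 fold changes of 0.60, 0.75, 1.18, 0.71, 0.90 and 0.53.

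The cyclins and kinases that start mitosis were higher together, though none of the 6 passed the adjusted threshold. Cdk1, the kinase that starts mitosis, had 11.1, 11 and 9.21 CPM in transgenic libraries, against 7.43, 6.18 and 7.96 CPM in wild-type libraries. The groups did not overlap, and the log2 fold change was 0.54 (SE 0.14, edgeR adjusted p = 0.107). Ccna2, the cyclin of S and G2 phase, came closest to the threshold, with a log2 fold change of 0.60 (SE 0.13, edgeR adjusted p = 0.0521). Ccnb1 and Ccnb2, the B-type cyclins, had values of 0.62 and 0.46. Per kilobase of exon Ccnb2 was the more abundant of that pair, at 4.44 CPM per kb in transgenic and 3.23 in wild-type tissue, where Ccnb1 had 0.844 and 0.549. Plk1, the polo-like kinase, had a log2 fold change of 0.69. Aurka, the centrosomal kinase, had one of the smallest values of the mitosis genes, with 11.9, 12.7 and 11.5 CPM in transgenic against 9.72, 9.53 and 10.5 CPM in wild-type libraries. Its libraries did not overlap either, at a log2 fold change of 0.28 (SE 0.11, edgeR adjusted p = 0.229).

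Kinetochore genes held the largest change of all members. Knl1, the scaffold that recruits checkpoint proteins to the kinetochore, had 1.36, 2.20 and 1.69 CPM in transgenic libraries, from 50, 64 and 46 counts, against 0.730, 0.741 and 0.657 CPM in wild-type libraries, from 23, 27 and 19 counts. Its lowest transgenic library stood well above its highest wild-type library. The log2 fold change was 1.29 (SE 0.26, edgeR adjusted p = 0.0459), or 2.45-fold, and limma-voom did not call it (adjusted p = 0.0599). Nuf2, a subunit of the microtubule-binding Ndc80 complex, had 4.33, 4.73 and 4.79 CPM in transgenic against 2.67, 2.86 and 2.91 CPM in wild-type libraries. It rose by 0.72 (SE 0.15, edgeR adjusted p = 0.0490), a narrow call that was lost with RLE scaling (adjusted p = 0.0517). Its partner Ndc80 had a log2 fold change of 0.66, and Cenpf, of the outer kinetochore, 0.70, neither of them called. Cenpa, the centromeric histone, had 0.31. Cenpe, the kinetochore motor, had 6.00, 6.38 and 5.08 CPM in transgenic and 5.40, 5.71 and 4.95 CPM in wild-type libraries. These ranges overlapped, and its log2 fold change of 0.12 (SE 0.15) was the smallest among mitosis genes.

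The spindle checkpoint kinases and the passenger complex, which watch and correct attachment of chromosomes, did not overlap between groups in any of their 6 genes, with 0 called. This was not particular to them, as 28 of 30 tested mitosis genes and 11.4% of all genes were higher without overlap. Ttk, the Mps1 kinase, was at 2.15, 1.68 and 1.47 CPM in transgenic and 1.21, 0.796 and 0.830 CPM in wild-type libraries. Its log2 fold change of 0.91 came second among mitosis genes but had a wide error (SE 0.27, edgeR adjusted p = 0.142). Bub1 and Bub1b had 0.69 and 0.63. In the passenger complex Aurkb, its kinase, had 0.65, Cdca8, or borealin, 0.57, and Birc5, or survivin, 0.47.

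Of the genes for spindle, midzone and cytokinesis, Anln rose most firmly. Anillin, its product, ties actin and septins to the cleavage furrow. Anln had 7.06, 6.83 and 6.59 CPM in transgenic libraries, against 3.91, 3.79 and 3.63 CPM in wild-type libraries. The libraries of each group lay close together and the groups far apart, at a log2 fold change of 0.85 (SE 0.13, edgeR adjusted p = 0.0154), or 1.81-fold. Tpx2, a spindle assembly factor, had 0.69 and just missed the threshold (SE 0.15, edgeR adjusted p = 0.0553), and the motors Kif23 and Kif20a had 0.64 and 0.54. Prc1, which crosslinks microtubules of the midzone, had 7.85, 8.47 and 6.52 CPM in transgenic and 6.92, 8.32 and 5.60 CPM in wild-type libraries. Its groups overlapped, with a log2 fold change of 0.13 (SE 0.18). Kif11, the Eg5 motor of bipolar spindles, could not be tested: it had 2 counts in transgenic library 2 and 0 in each other library. The cause was not tested.

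The remaining mitosis genes act on anaphase, chromosomes and transcription. Top2a, the topoisomerase that disentangles chromosomes, was the mitosis gene with most counts, at 27.7, 31.6 and 25.3 CPM in transgenic against 18.2, 18.1 and 19.6 CPM in wild-type libraries. It was well apart between the groups and rose by 0.60 (SE 0.10, edgeR adjusted p = 0.0236). Mki67, which encodes the proliferation antigen Ki-67, had 0.53 (SE 0.13, edgeR adjusted p = 0.0894). Foxm1, an activator of G2/M genes, had 5.45, 6.38 and 5.23 CPM in transgenic and 3.27, 3.49 and 3.29 CPM in wild-type libraries. It did not overlap and rose by 0.76 (SE 0.15, edgeR adjusted p = 0.0398). Mybl2, which encodes B-Myb, had 0.52 with a wide error (SE 0.27), since wild-type library 1, at 2.29 CPM, nearly met the transgenic libraries at 2.32 to 2.37 CPM. Cdc20, the activator of the anaphase-promoting complex, was the most abundant mitosis gene per length, at 6.51 CPM per kb in transgenic and 4.42 in wild-type tissue. It had a log2 fold change of 0.56 (SE 0.15, edgeR adjusted p = 0.109), while Ube2c, the ubiquitin-conjugating enzyme of that complex, had 0.51 and Espl1, or separase, 0.50.

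**Figure D2:**
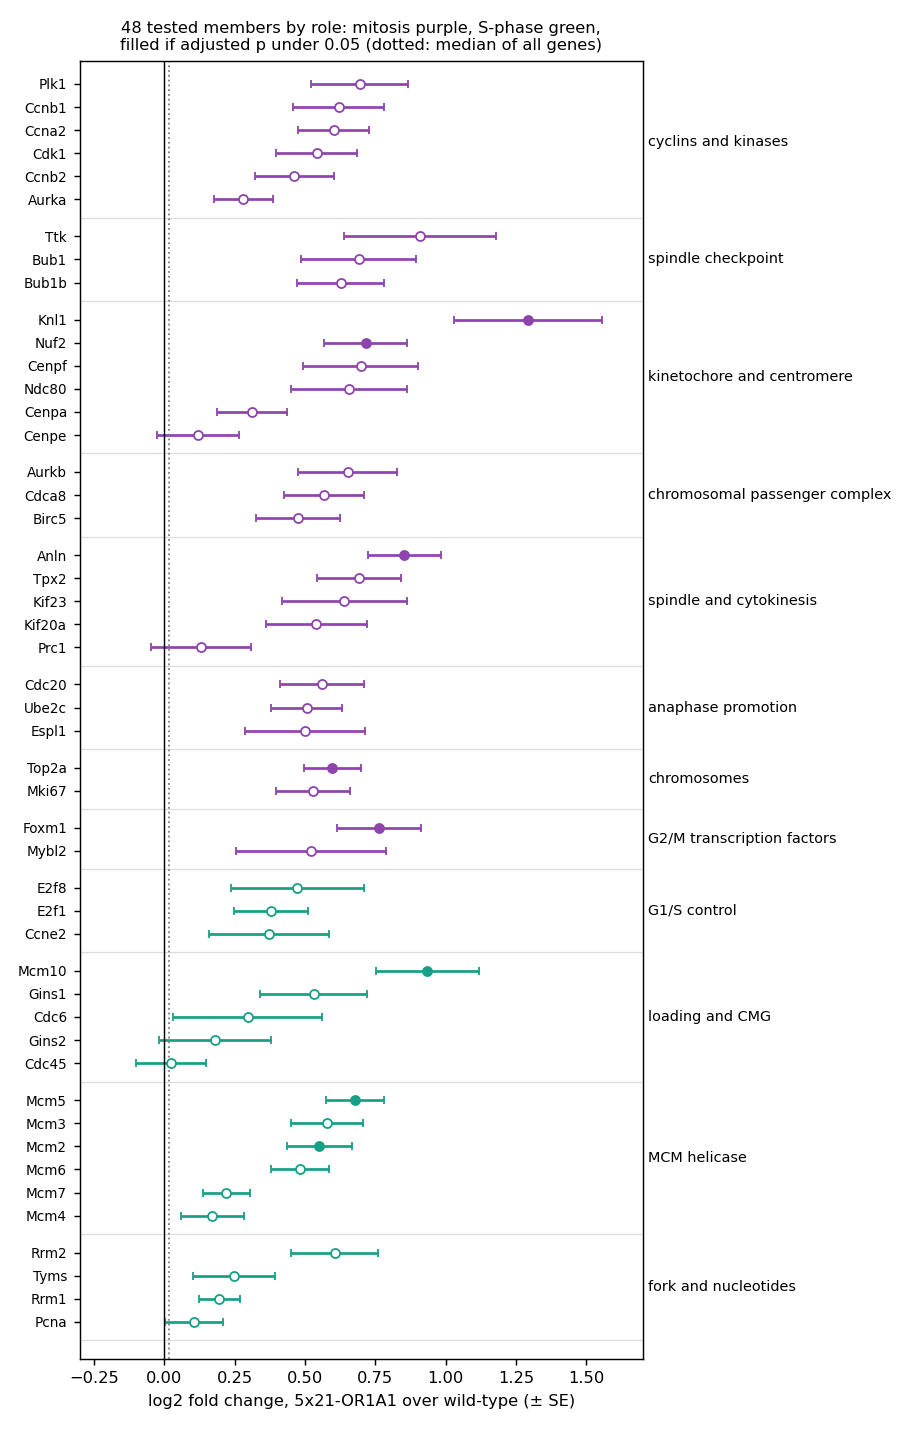
Log2 fold change of each tested member, 5x21-OR1A1 over wild-type, with SE bars, mitosis genes in purple and S-phase genes in green, grouped by role and filled where the edgeR adjusted p was under 0.05. All 48 points lie right of 0, from 0.03 for Cdc45 to 1.29 for Knl1.

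The S-phase genes had log2 fold changes from 0.03 to 0.94, where mitosis genes had 0.12 to 1.29. Differences between members were not tested. The MCM helicase held 2 of the 3 S-phase calls. Mcm5 had 18.5, 18 and 16.8 CPM in transgenic libraries, against 11.8, 10.2 and 11.3 CPM in wild-type libraries. Its groups were far apart, and it rose by 0.68 (SE 0.10, edgeR adjusted p = 0.0151), or 1.6-fold. Mcm2 had 15.3, 16.9 and 14.3 CPM in transgenic and 11.3, 9.61 and 10.9 CPM in wild-type libraries. It rose by 0.55 (SE 0.11) at an edgeR adjusted p of 0.04996, just under the threshold, and was lost when libraries were scaled by totals alone (adjusted p = 0.0545). Mcm3 had a log2 fold change of 0.58 and Mcm6 of 0.48, with edgeR adjusted p of 0.0617 and 0.0517. The other subunits of the same hexamer were nearer to 0, Mcm7 at 0.22 (SE 0.08) and Mcm4 at 0.17 (SE 0.11). Mcm4 had 16, 17.2 and 13.6 CPM in transgenic and 13.2, 14.1 and 14.3 CPM in wild-type libraries, which overlapped. Per kilobase, Mcm6 and Mcm7 were the most abundant subunits over all libraries, at 5.39 and 4.67 CPM per kb in transgenic and 3.86 and 4.0 in wild-type tissue, and Mcm2 the least at 2.23 and 1.52.

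Factors that load and activate the helicase had log2 fold changes from 0.03 to 0.94, and differences among them were not tested. Mcm10, needed to start replication from the loaded helicase, had 2.59, 2.64 and 2.91 CPM in transgenic libraries, against 1.49, 1.37 and 1.38 CPM in wild-type libraries. It had the largest value of the S-phase genes and rose by 0.94 (SE 0.18, edgeR adjusted p = 0.0407), or 1.91-fold. Gins1 and Gins2, subunits of the GINS complex that travels with the helicase, had 0.53 and 0.18, neither called. Cdc6, which loads the MCM ring, had 0.30 with overlapping groups. Cdc45, the third partner of the active helicase, had 9.19, 8.68 and 10.6 CPM in transgenic and 9.81, 9.42 and 8.75 CPM in wild-type libraries. The groups lay on top of each other, and its log2 fold change of 0.03 (SE 0.12) was the smallest of all members and turned to -0.063 with transgenic library 3 left out and to -0.019 with wild-type library 3 left out.

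At the fork and in nucleotide supply only Rrm1 and Rrm2 were free of overlap, where 11.4% of all genes were higher without overlap. Rrm2, the small subunit of ribonucleotide reductase that limits its activity in S phase, had 11, 9.33 and 8.65 CPM in transgenic and 5.40, 6.48 and 7.16 CPM in wild-type libraries, at a log2 fold change of 0.61 (SE 0.15, edgeR adjusted p = 0.0953). Rrm1, the large subunit, had 0.20 (SE 0.07). Tyms, thymidylate synthase, had 0.25. Pcna, the sliding clamp and the most abundant member per length at 10.3 CPM per kb in transgenic and 9.52 in wild-type tissue, had 24.9, 24.7 and 24.2 CPM in transgenic libraries, against 19.6, 24.9 and 24.1 CPM in wild-type libraries. Wild-type libraries 2 and 3 matched the transgenic ones, and the log2 fold change was 0.11 (SE 0.10, edgeR adjusted p = 0.662). Of the G1/S regulators, E2f8, E2f1 and Ccne2 had 0.47, 0.38 and 0.37, none of them called.

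**Figure D3:**
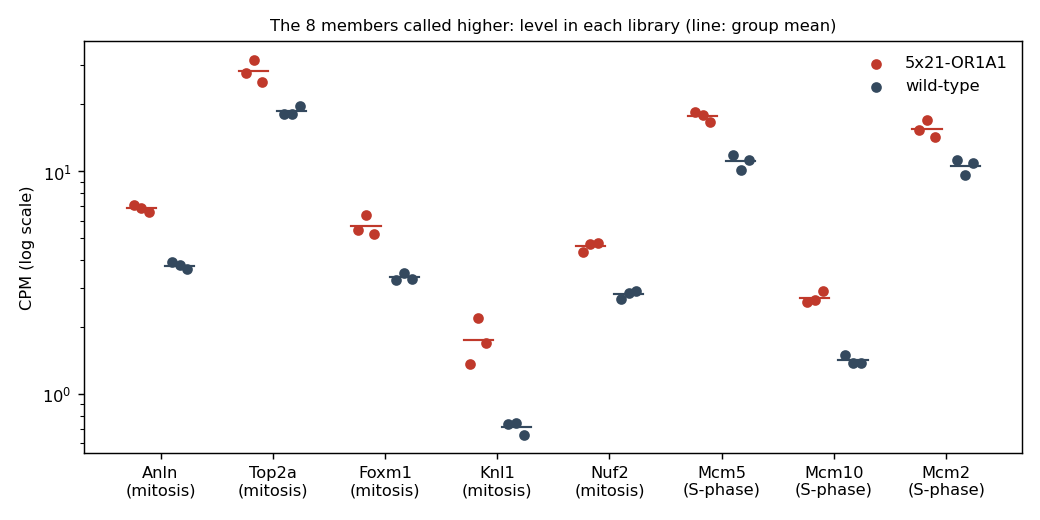
CPM on a log axis of the 8 members called higher, 3 transgenic libraries left of 3 wild-type libraries for each gene, with lines at group means. No gene overlaps between the groups, and Knl1 has the lowest level and the widest gap.

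**Figure D4:**
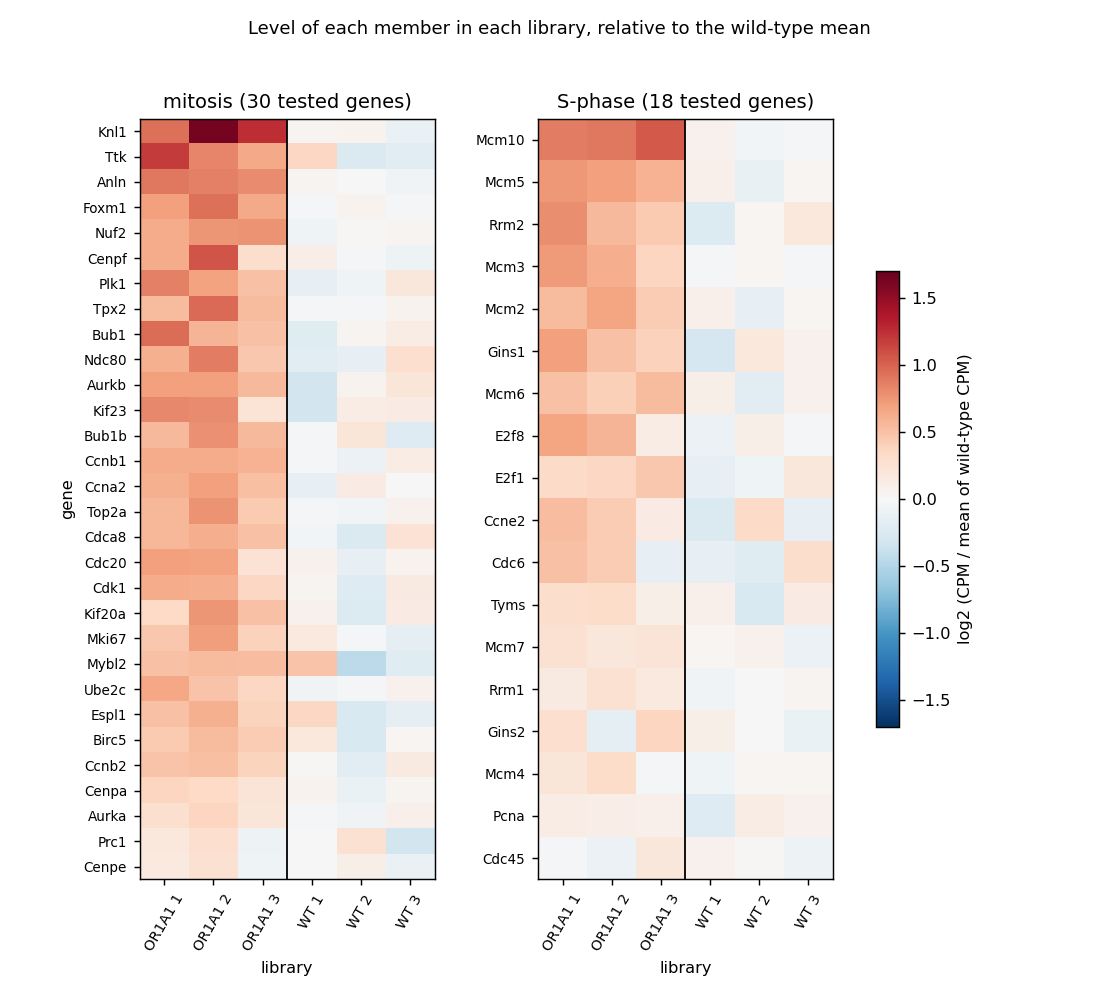
Log2 ratio of each library's CPM to the wild-type mean for 30 mitosis and 18 S-phase genes, ordered by fold change, transgenic libraries on the left. Mitosis genes are above the wild-type mean in all transgenic libraries except Prc1 and Cenpe in library 3, while the lower part of the S-phase panel, Gins2 to Cdc45, stays pale.

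In GENCODE M21 on GRCm38 the 8 genes called are protein-coding and lie on 6 chromosomes: Anln at chr9:22332012-22389188, Top2a at chr11:98992943-99024189, Foxm1 at chr6:128362967-128376146, Knl1 at chr2:119047119-119105501, Nuf2 at chr1:169497934-169531464, Mcm5 at chr8:75109569-75128439, Mcm10 at chr2:4989714-5012791 and Mcm2 at chr6:88883474-88898780. Exon bases shared with a gene on the other strand make some of these values less sure, since the libraries carry no strand. Gins2 shares 2758 exon bases with Gse1, Kif20a 1271 with Cdc23, Prc1 911 with Rccd1, Ccne2 609 with Ints8, Ube2c 592 with Tnnc2 and Ccna2 510 with Exosc9. E2f8, Cdc45, Mcm7, Cdca8, Plk1 and Cdc20 share 53 to 610 bases with such neighbours. Of the 8 genes called, only Top2a, with 122 bases of Gm23451, and Foxm1, with 241 bases of Tex52 and Gm44596, share any, in each case on the same strand.

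Cell cycle genes outside the 49 leaned the same way with few calls. Of 32 other G2/M genes tested, 1 rose and 0 fell, 29 lay above 0 and the median was 0.33. The gene that rose was Nusap1, of the mitotic spindle, at 8.83, 8.37 and 8.10 CPM in transgenic and 5.46, 5.35 and 5.15 CPM in wild-type libraries (log2 fold change 0.66, SE 0.12, edgeR adjusted p = 0.0286). The summed level of that list overlapped, at 1845 to 1900 CPM in transgenic and 1750 to 2071 CPM in wild-type libraries, most of it from genes such as Tubb4b (828 ± 9.95 CPM in transgenic and 966 ± 115 CPM in wild-type tissue), a tubulin that cells outside the cycle use too. Nek2, of the same list, had 1 count over all libraries and was not tested. Of 30 other S-phase genes, 1 rose and 0 fell, 26 lay above 0 and the median was 0.21. Hells, a chromatin remodeller of dividing cells, had 5.70, 5.63 and 6.15 CPM in transgenic and 3.33, 3.41 and 2.73 CPM in wild-type libraries (0.88, SE 0.15, edgeR adjusted p = 0.0259).

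No gene was called by edgeR among 18 kinetochore and checkpoint partners (median 0.24), 24 genes of origin licensing and the replication fork (0.21), 13 G1 cyclins, kinases and E2F genes (0.22) or 9 tested CDK inhibitors and pocket proteins (0.10). At an unadjusted p under 0.05 these lists had 5, 6, 5 and 2 genes higher and 0 lower, and DESeq2 called 1, 1, 2 and 1 of them higher. Dsn1, of the Mis12 complex that joins Knl1 at the kinetochore, had 0.75 (SE 0.18, edgeR adjusted p = 0.0753), and Spc25, of the Ndc80 complex, 0.53 (0.0934). Timeless and Dbf4, of the fork and its activating kinase, had 0.53 and 0.49 with edgeR adjusted p of 0.105 and 0.125. Ccnd1, cyclin D1, had 0.45 and E2f2 had 0.57, with 0.0884 and 0.0750. Cdkn1b, the inhibitor p27, also leaned upwards at 0.36 (SE 0.08, edgeR adjusted p = 0.0695), as did Rbl1, or p107, at 0.60 (0.144).

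The neurogenic progenitor list moved beside the cell cycle genes. Of its 10 genes 3 rose, 0 fell and 9 lay above 0, with a median of 0.43. Insm1 and Neurod1, transcription factors of dividing and newly committed precursors, rose by 0.97 and 0.84 (SE 0.13 and 0.15; edgeR adjusted p = 0.00896 and 0.0283). Its summed level was 323, 333 and 306 CPM in transgenic libraries, against 221, 236 and 245 CPM in wild-type libraries. Per progenitor CPM, the mitosis sum was 0.717, 0.751 and 0.684 in transgenic and 0.720, 0.650 and 0.658 in wild-type libraries, which overlapped. The S-phase sum per progenitor CPM was 0.688, 0.660 and 0.688 in transgenic and 0.767, 0.727 and 0.724 in wild-type libraries. It was lower in each transgenic library, but much of the progenitor sum came from Hes6 and Insm1. Hes6 averaged 129 CPM in transgenic and 103 CPM in wild-type tissue, and Insm1 68.1 and 34.7 CPM. These ratios therefore also follow the rise of Insm1, and S phase per progenitor cell was not tested. Lgr5, a marker of the less committed globose cells, had -0.33 (edgeR adjusted p = 0.494).

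Later and other cell types gave these values in the same libraries. Of 10 immature neuron markers 4 rose and 1 fell (median 0.44), with Gap43, Dpysl3 and Stmn1 at 0.78, 0.72 and 0.51 and Stmn4 at -0.70. Of 13 mature neuron markers 0 rose and 5 fell (median -0.67), among them Omp at -0.76, Gng13 at -0.81, Gfy at -0.76 and Umodl1 at -0.71. By edgeR 0 of 7 horizontal basal cell markers were called (median 0.06, 1 higher at an unadjusted p under 0.05 and 0 by DESeq2), with Krt5 and Trp63 at 0.40 and 0.27. Likewise 0 of 7 sustentacular markers were called by edgeR (median -0.22, 3 lower at an unadjusted p under 0.05 and 3 by DESeq2), with Krt8 and Krt18 at -0.34 and -0.35. Over all genes DESeq2 called 902 lower, of 18500 with an adjusted p. The share of all genes lower at an unadjusted p is not reported here.

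Among markers of cells outside the epithelium proper, those of B and plasma cells also stood higher. Of these 8 markers 1 rose, Jchain (1.52, edgeR adjusted p = 0.0438), and all 8 lay above 0. The summed level ran from 137 to 185 CPM in transgenic and from 76.0 to 120 CPM in wild-type libraries, most of it Jchain and Sdc1. Ms4a1, which encodes a surface antigen of B cells, was at 0.789 to 1.09 CPM in transgenic and 0.247 to 0.603 CPM in wild-type libraries. Bone marrow precursor markers overlapped, with sums of 20.6 to 40.2 CPM in transgenic and 27.3 to 54.1 CPM in wild-type libraries and a median of -0.37, and T and NK cell markers likewise at 2.6 to 3.9 CPM in transgenic and 1.7 to 4.6 CPM in wild-type libraries (median -0.07). Myeloid sums were 393 to 646 CPM in transgenic and 249 to 569 CPM in wild-type libraries (median 0.19). Endothelial and fibroblast sums were 5105 to 6032 CPM in transgenic libraries and 5016, 2140 and 5113 CPM in wild-type libraries (median 0.40). Wild-type library 2 had the lowest wild-type sum in each of these lists, that of B and plasma cells included. By edgeR 0 markers of these last 4 lists were called, with 0, 0, 1 and 1 higher and 0 lower at an unadjusted p under 0.05, and 0 by DESeq2. The genes with the lowest adjusted p were Elane (-0.60) and Ms4a3 (-0.86) of marrow, Cd3g (-0.39) and Nkg7 (0.18) of T and NK cells, Itgam (0.83) and Cx3cr1 (0.56) of myeloid cells, and Kdr (0.56) and Dcn (0.28) of the last list. The part of these other cells in the cell cycle values was not tested.

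**Figure D5:**
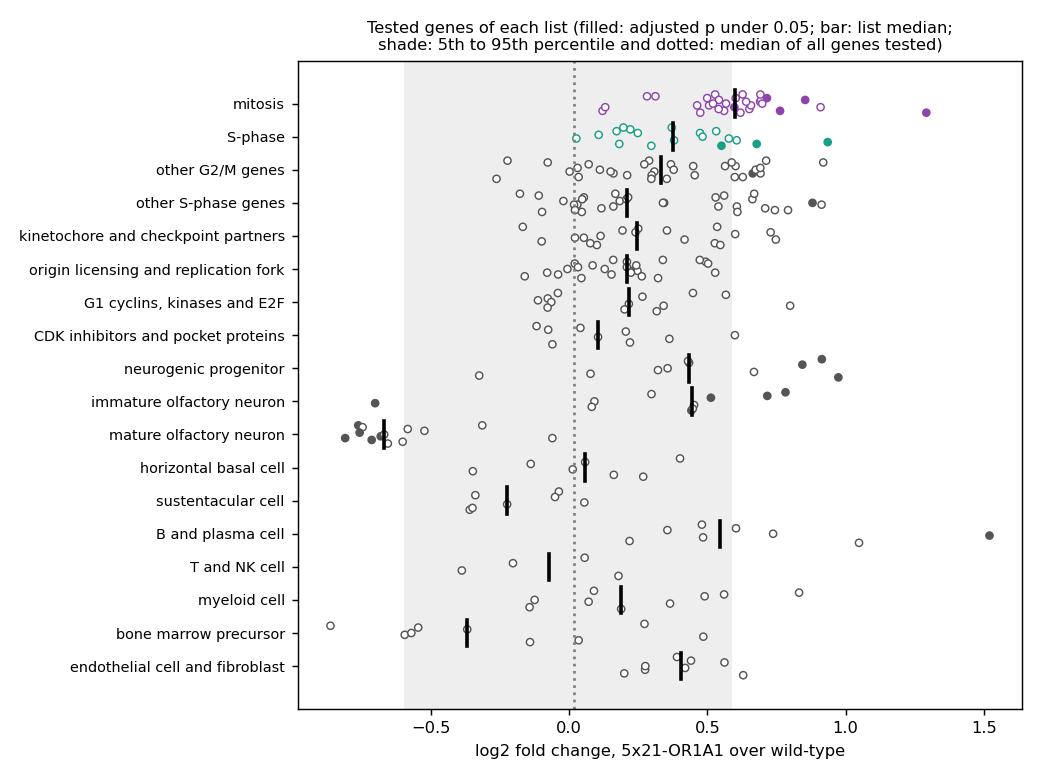
Log2 fold change of every tested gene in each list, with a bar at the list median, filled points for an edgeR adjusted p under 0.05, shading from the 5th to the 95th percentile of all 19267 genes (-0.60 to 0.59) and a dotted line at their median. Mitosis genes center at the upper edge of the shading, S-phase and progenitor genes between that edge and the dotted line, and mature neuron markers below the shading.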

How the data were processed

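The values are raw read counts per gene symbol, deposited by the authors without normalization. Libraries were nonstranded TruSeq libraries with poly-A selection, sequenced as single-end 100-base reads, per the labels' protocols. Per the submitters' processing notes, TopHat2 2.1.1, HTSeq 0.9.1 and the build GRCm38.p5 were used. Counting options and annotation release: not given in the sources used here.

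Tests used the quasi-likelihood model of edgeR 4.0.16 (R 4.3.3) for genotype, after TMM scaling and its filter on low counts by group (minimum count 10, total 15). P-values were adjusted by Benjamini and Hochberg over 19267 genes, and calls took an adjusted p under 0.05. CPM are counts relative to TMM-scaled totals. The SE is the log2 fold change over the square root of F. DESeq2 1.42.0 and limma-voom (limma 3.58.1) were alternatives, with other scalings, filters and left-out libraries. No libraries were merged, since every pair differed beyond sampling noise. Each tool was tested on simulated counts with known changes, where DESeq2 had a larger share of false calls than edgeR or limma-voom. It also recovered more of the smallest of these changes than the other tools.

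Exon lengths, positions and overlaps come from GENCODE M21 (GRCm38), where all 49 members were found. Promoters come from RefSeq (GRCm38.p6), which matched 40 members. The members and lists, and the rule for named genes, were chosen with earlier results of these data known. That rule takes from each phase the genes called, the 3 most abundant per kilobase, the 3 largest and 3 smallest fold changes and any member not tested, and from other lists up to 4 called genes, or the 2 with the lowest adjusted p. Other members are named by role. No score over the members was tested. Single values of some list genes are not reported here.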

Additional observations from a re-analysis of the deposited data

How the results depend on the processing

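Across alternatives the direction of the members held more firmly than the calls. The median was 0.53 to 0.66 for mitosis and 0.30 to 0.47 for S-phase genes when 1 library was left out, and all 48 members stayed above 0 under RLE, upper-quartile and total-count scaling, DESeq2, limma-voom, both filters and the replicate block. The exceptions were Cdc45, at -0.0038 with sex as a covariate, -0.063 without transgenic library 3 and -0.019 without wild-type library 3 (range with 1 library left out -0.063 to 0.085), and Prc1, at -0.0026 without wild-type library 3 (range -0.0026 to 0.287). The calls were 5 mitosis, 3 S-phase, 1 other G2/M and 1 other S-phase genes and 523 genes in all. DESeq2 gave 15, 6, 4, 3 and 1215. An adjusted p under 0.01 left 0, 0, 0, 0 and 154, of which 12 were higher. Upper-quartile scaling and a filter of 1 CPM in 3 libraries each gave 2 other G2/M genes. With sex, read from Xist and Ddx3y, as a covariate (Xist above Ddx3y in 2 transgenic libraries and 1 wild-type library) there were 1 mitosis, 2 S-phase, 0 other G2/M and 0 other S-phase genes and 289 in all. Leaving out 1 library gave 0 to 3 mitosis, 0 to 1 S-phase, 0 to 2 other G2/M, 0 to 1 other S-phase and 150 to 626 genes in all; 2 libraries in a group leave fewer samples, and other causes were not tested.

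Libraries with the same number share only that number: the deviations of same-numbered libraries correlated at -0.375, 0.123 and -0.0723. With the replicate block 0 mitosis, 1 S-phase, 0 other G2/M and 0 other S-phase genes were called. Over the named members and all alternatives, 245 values kept direction and side of the threshold, 65 lost the call, 6 gained one and 4 changed sign. Only the 8 called members could lose a call, so all 65 losses fell on them, and many kept values belong to members never called. Knl1, at 19 to 27 counts in wild-type libraries, is the called gene with the fewest counts.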

Other observations

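Rrm1 lies on chromosome 7 at 102441695 to 102469771 (GRCm38), beside class I odorant receptors. Of the receptor genes within 50 kb, Olfr543 has its nearer end 6.81 kb from Rrm1 and had a log2 fold change of 0.42 (SE 0.29, edgeR adjusted p = 0.519). Olfr544, 12.3 kb away by its nearer end, had 5.29, 4.49 and 3.61 CPM in transgenic and 19, 19.2 and 18.6 CPM in wild-type libraries and fell by 2.08 on the log2 scale (edgeR adjusted p = 0.00121). Olfr545, 21.7 kb away likewise, fell by 1.97 (edgeR adjusted p = 0.00591). Rrm1 itself was at 32.5, 34.9 and 32.7 CPM in transgenic and 28.0, 29.4 and 30.1 CPM in wild-type libraries.

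Kif11 and Nek2 had 2 and 1 counts over all 6 libraries, while the 30 tested mitosis members had at least 19 in each. The Kif11 promoter holds the CHR letters at 19 bases before its start.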
